A study of Mus musculus with 6 samples.

Results

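The aldo-keto reductases are a family of enzymes that reduce aldehydes and ketones to alcohols, and 8 of their genes were followed across 6 RNA libraries of the mouse cell line EML. The 8 genes are Akr1c12, Akr1c13, Akr1c18, Akr1b3, Akr1b8, Akr1a1, Akr1e1 and Akr7a5. They were found by matching RefSeq accessions to gene symbols, and each had 1 entry among the 23146 transcript entries used. The family was chosen from its RPKM in these same libraries, among them the high Akr1c12 and Akr1c13 values. Its levels and differences are therefore given as a description, and no p-value is read as support.

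EML is an immortal progenitor line from mouse bone marrow, kept in stem cell factor, which can give rise to erythroid, myeloid and mast cells. The study asked what loss and gain of KAI1, a tetraspanin encoded by Cd82, do to the transcriptome. The groups were EML cells with KAI1 knockdown (n = 2), the knockdown control that the titles call WT (n = 2), EML cells with KAI1 overexpression (n = 1) and the overexpression control, also called WT (n = 1). All 4 groups were grown in medium with serum and stem cell factor, with strain BDF1, bone marrow and basophil as the other labels. The sources used here do not give how KAI1 was lowered or raised, whether a group is 1 clone, or which of the named RNA kits served each library. Replicate numbers stand on the knockdown-arm libraries, but no label says that these were separate cultures. A p-value then measures only the spread among these samples, which may be technical.

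Values are the authors' RPKM, reads relative to transcript length and to library size. Depth, estimated from the steps between low values, was 12800000 and 19400000 reads for KAI1 knockdown, 19000000 and 9850000 for its controls, 19500000 for KAI1 overexpression and 25800000 for its control. Cd82 stood at 7.65 and 6.91 RPKM in the knockdown libraries against 43.9 and 13.8 RPKM in their controls, and at 15.2 RPKM in the overexpression library against 11.9 RPKM in its control. The overexpression value is 1.26-fold on the RPKM + 1 scale, under the 2-fold size rule used for this unreplicated arm, and lies below knockdown control replicate 1. KAI1 overexpression is therefore the label of that library, which its Cd82 level bears out only by this small margin. Whether the measured reads include the introduced sequence is unknown here. Knockdown control replicate 1 stood apart from control replicate 2. It held 82713 RPKM summed over 20 mast cell and basophil markers and 208 RPKM over 15 erythroid markers, while control replicate 2 held 19685 and 5076 RPKM. KAI1 overexpression stood between these, with a mast sum of 29100 RPKM against 7968 RPKM in its control. Its erythroid sum was 1117 RPKM against 3256 RPKM. Of the erythroid markers, Gata1 and Epor were higher in knockdown control replicate 1 (87.3 and 15.6 RPKM) than in replicate 2 (53.5 and 14.8 RPKM). Against the label basophil, the basophil protease gene Mcpt8 was present in every library (116 to 3908 RPKM). Unlike the mast sum, Mcpt8 was lower in knockdown control replicate 1 (160 RPKM) than in replicate 2 (389 RPKM). With overexpression Mcpt8 stood at 3908 RPKM against 491 RPKM in its control. Fcer1a, the IgE receptor alpha chain, was at 0 in 1 knockdown library (replicate 1) and in knockdown control replicate 2. In each of these libraries 19 of the 20 mast cell and basophil markers were above 0. Macrophage markers summed to at most 3.22 RPKM in any library, with C1qa, C1qc and Mrc1 at 0 throughout, and lymphoid markers to at most 9.30 RPKM. Neutrophil and monocyte markers summed to 1231 and 936 RPKM in the knockdown against 1093 and 1250 RPKM in its controls. They summed to 1430 RPKM with overexpression against 1743 RPKM in its control. Ctsg alone held 444 and 434 RPKM of these sums in the knockdown and 1080 and 643 RPKM in its controls. It held 1295 RPKM with overexpression and 1034 RPKM in its control. Mpo, myeloperoxidase, went the other way from Ctsg between the controls, at 7.84 RPKM in the first and 538 RPKM in the second. Mpo was at 45.8 RPKM with overexpression against 661 RPKM in its control. The progenitor gene Cd34 was likewise at 0.859 and 64.7 RPKM in control replicates 1 and 2. It was at 15.9 RPKM with overexpression against 66.4 RPKM in its control. Myb and Tcf7 of the same 12-gene stem and progenitor list were also lower in control replicate 1 than in replicate 2. Other genes of the list, Ly6a among them (748 and 217 RPKM), went the other way. The list summed to 1355 and 639 RPKM in these controls, and to 424 RPKM with overexpression against 668 RPKM in its control. Kit, which is also on the mast cell and basophil list, held 437 and 83.3 RPKM of these sums in control replicates 1 and 2. It held 189 RPKM with overexpression and 107 RPKM in its control. In bulk RNA, fewer cells of a type and less RNA per cell cannot be told apart.

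Aldo-keto reductases use NADPH or NADH as the hydride donor and share a barrel-shaped fold. The AKR1C branch acts on steroids, prostaglandins and dihydrodiols. The AKR1B branch holds aldose reductase, which turns glucose into sorbitol, and the AKR1A and AKR7A branches clear reactive aldehydes. In mouse myeloid lines, transcripts of the Akr1c12 and Akr1c13 pair have been described as responsive to interleukin 3, the cytokine of mast cell and basophil growth.

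Akr1c12 and Akr1c13 lie close together on chromosome 13 and are near copies, so their sequences are shown before their values. On mm9, the build of the deposited tables, Akr1c12 spans 4267418 to 4278645 and Akr1c13 spans 4190433 to 4204849. In GENCODE M21 their coding sequences had 969 bases each, of which 932 were identical (96.18%) and 37 differed. The first 150 coding bases hold 2 of these differences, shown in capitals.
Akr1c12 coding start: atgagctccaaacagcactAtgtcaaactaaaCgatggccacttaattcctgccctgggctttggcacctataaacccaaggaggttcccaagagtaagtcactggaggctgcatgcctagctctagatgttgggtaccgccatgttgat
Akr1c13 coding start: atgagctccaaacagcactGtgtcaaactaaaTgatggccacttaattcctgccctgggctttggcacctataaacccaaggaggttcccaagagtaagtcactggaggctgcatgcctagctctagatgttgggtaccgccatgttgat
Of all stretches of 50 bases in the Akr1c12 transcript, 347 of 1212 (28.63%) also occurred in the Akr1c13 transcript, and none occurred in another gene's transcripts. A read within such a stretch cannot be given to 1 of the pair by its sequence, so how the reads divide within the pair is uncertain. Akr1c18, the third of the measured AKR1C genes, was 73.79% and 73.89% identical to Akr1c12 and Akr1c13 over its coding bases and shared no 50-base stretch with either. Among the other members, Akr1a1, Akr1e1 and Akr7a5 shared no such stretch with any gene. Akr1b3 shared 59.94% of its stretches, mostly with annotated copies such as Gm6644 (56.2%), so reads from such copies could enter or leave its value.

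The 250 bases before the start sites of the pair were also alike. In the RefSeq promoters of GRCm38.p6, a later build than that of the tables, the Akr1c12 promoter (chr13:4279400-4279649, minus strand) and the Akr1c13 promoter (chr13:4190937-4191186, plus strand) matched at 235 of 246 aligned bases (95.53%). Capitals mark the 15 bases of each that differ or have no partner in the alignment.
Akr1c12 promoter: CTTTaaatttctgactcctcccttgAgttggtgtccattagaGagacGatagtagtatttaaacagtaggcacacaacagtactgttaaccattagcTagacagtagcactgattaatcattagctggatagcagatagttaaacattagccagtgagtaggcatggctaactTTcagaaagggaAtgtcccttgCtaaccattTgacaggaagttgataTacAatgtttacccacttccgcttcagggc
Akr1c13 promoter: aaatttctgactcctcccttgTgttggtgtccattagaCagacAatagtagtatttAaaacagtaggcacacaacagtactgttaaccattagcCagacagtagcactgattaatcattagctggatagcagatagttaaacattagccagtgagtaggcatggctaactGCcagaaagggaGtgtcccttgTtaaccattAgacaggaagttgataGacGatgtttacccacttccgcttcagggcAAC
The next closest pair among the 7 members with a promoter in the table was Akr1c12 and Akr1c18, at 63.64%. Searched on both strands, TGACNNNGC, the core of the antioxidant response element bound by Nrf2, was found in 0 of these 7 promoters and in 10.16% of the 32851 promoters in the table. TTCNNNGAA, the STAT5-type motif, was found in 0 of the 7 and in 7.02% of all. The motif of GATA factors, spelled AGATAA, was found in 9.988% of all promoters and among the members in Akr1e1, 162 to 157 bases before the start site. An absent match says only that these letters are not in this window.

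Akr1c12, a dehydrogenase of hydroxysteroids and dihydrodiols in the mouse, was high in 2 libraries and close to absent in the other 4. It stood at 1.18 and 0.949 RPKM in the KAI1 knockdown libraries against 124 and 0.509 RPKM in their controls. In the overexpression arm it stood at 287 RPKM with KAI1 overexpression against 2.11 RPKM in the control. The 2 high libraries were KAI1 overexpression and knockdown control replicate 1, and the knockdown libraries lay between the 2 controls. The highest library was 191-fold above the lowest on the RPKM + 1 scale, a wider range than in 99.5% of the 10112 entries averaging 1 RPKM or more. By the estimated depth these values rest on about 19 and 23 reads in the knockdown against 2977 and 6 reads in its controls, and on 7069 reads with overexpression against 69 in the control.

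Akr1c13 followed the same order at the top, from a higher floor. It stood at 18.8 and 15.0 RPKM in the KAI1 knockdown against 215 and 18.7 RPKM in the controls. In the overexpression arm it stood at 441 RPKM with KAI1 overexpression against 18.0 RPKM in the control. Apart from KAI1 overexpression and knockdown control replicate 1, the libraries lay between 15.0 and 18.8 RPKM, with no separation of knockdown, its remaining control and the overexpression control. The range was 27.6-fold on the RPKM + 1 scale, wider than in 98.2% of entries. Akr1c18 encodes the 20-alpha-hydroxysteroid dehydrogenase that inactivates progesterone in the ovary. It spans 4131873 to 4149877 on chromosome 13 and was listed at 0 in 5 libraries, with 0.0488 RPKM, about 1 read, in KAI1 overexpression.

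**Figure D1:**
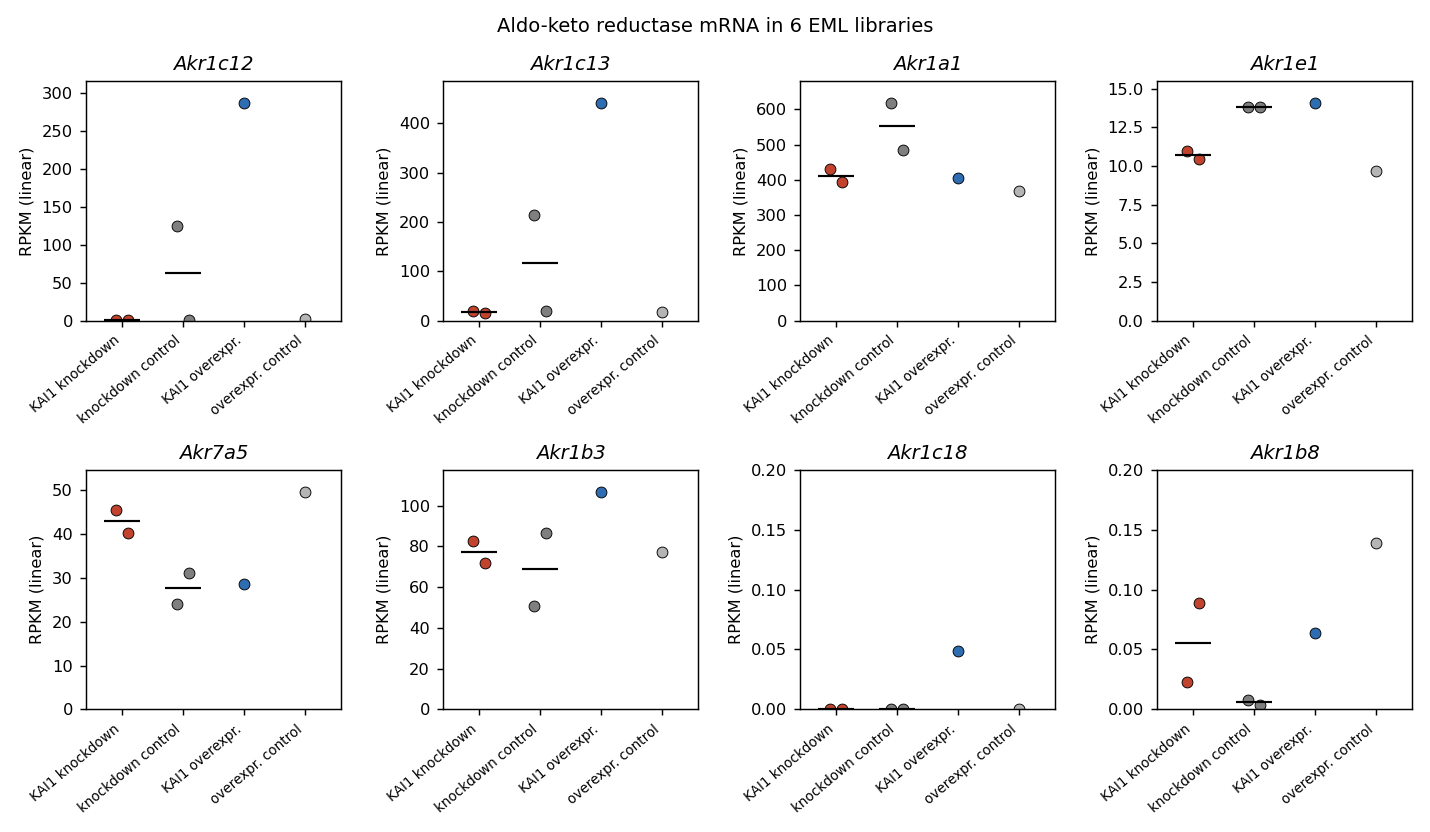
RPKM (linear axes starting at 0) of the 8 aldo-keto reductase genes, with 1 point per library and a bar at the mean of the 2 libraries of each knockdown-arm group. Akr1c12 and Akr1c13 are high in KAI1 overexpression (287 and 441 RPKM) and in 1 of the 2 knockdown controls (124 and 215 RPKM), whereas Akr1a1 varies by 1.67-fold over the 6 libraries.

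Summed, the 3 AKR1C genes stood at 20.0 and 16.0 RPKM in the knockdown against 339 and 19.2 RPKM in its controls, and at 729 RPKM with overexpression against 20.2 RPKM in its control. This sum does not depend on how reads were split within the pair if each shared read was counted once, which the sources used here do not say. Akr1c12 made up 5.91% and 5.93% of it in the knockdown against 36.7% and 2.65% in the controls, and 39.4% with overexpression against 10.5% in the control. Akr1c12 therefore took a larger share in the 2 libraries where the sum was high, and Akr1c13 exceeded Akr1c12 in each of the 6 libraries, by 1.53-fold with overexpression to 36.7-fold in knockdown control replicate 2. The AKR1C genes were 56.8% of the summed RPKM of all members with KAI1 overexpression against 3.83% in its control. In the knockdown arm they were 3.39% and 3.01% in the knockdown libraries against 32.4% and 3.02% in the controls.

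**Figure D2:**
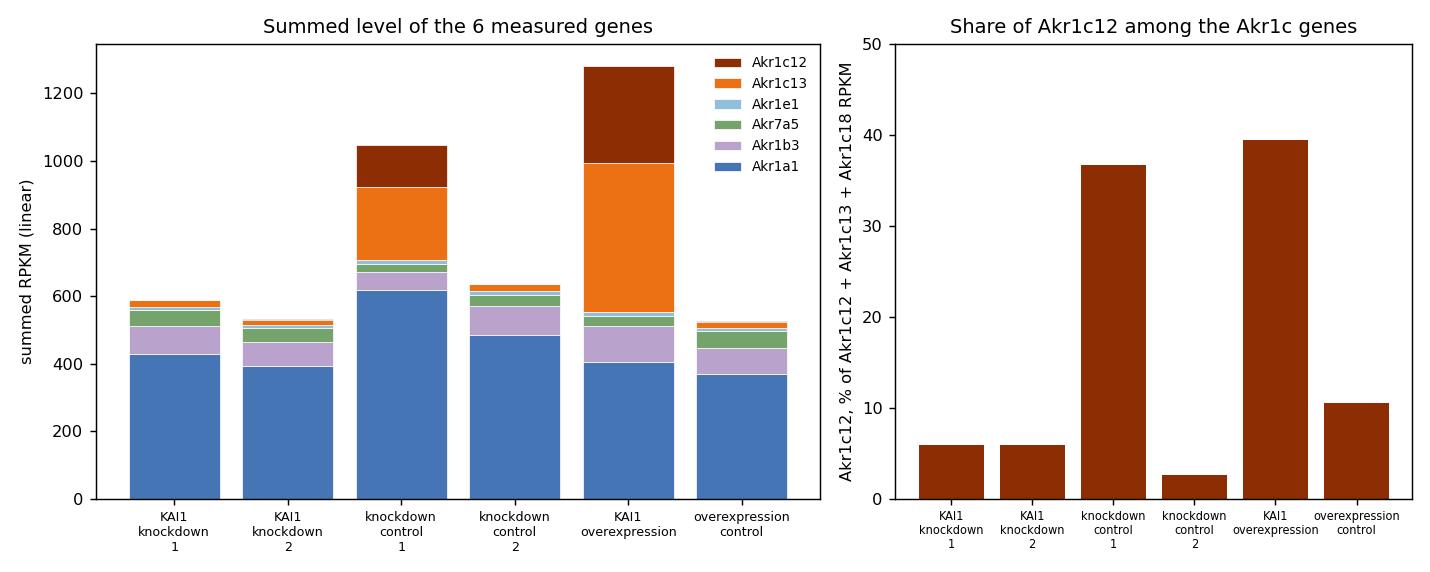
Left, summed RPKM (linear axis) of the 6 measured members, stacked by gene for each library; right, Akr1c12 as a percent of the summed AKR1C RPKM. The stack is tallest in KAI1 overexpression and knockdown control replicate 1, where Akr1c12 makes up 39.4% and 36.7% of the AKR1C sum, and Akr1a1 is the largest layer in every library except KAI1 overexpression.

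In the knockdown arm, limma was fitted on log2(RPKM + 1) to all 10113 entries that averaged 1 RPKM or more, and 6 of the 8 members entered the fit. It called 0 of the 6 at an adjusted p threshold of 0.05, against 0.0297% of all entries (3 called, 0.00989% higher and 0.0198% lower). The members' adjusted p-values by limma ran from 0.83 to 0.897. Their median log2 difference was -0.38, beside 0.03 over all entries. For Akr1c12 the difference was -2.74 (SE 2.17), with means of 1.07 ± 0.165 RPKM in the knockdown and 62.4 ± 87.5 RPKM in the controls (SD, n = 2 each). Control replicate 1 decided both its size and its sign: without that library the difference was 0.45, and without control replicate 2 it was -5.92. For Akr1c13 the difference was -1.87 (SE 1.19), with means of 16.9 ± 2.67 RPKM and 117 ± 139 RPKM (SD, n = 2 each), and it was -0.14 when control replicate 1 was left out and -3.60 when replicate 2 was. The spread between the 2 control libraries was thus larger than the difference between groups for both genes. Without control replicate 2 both genes passed limma's test (adjusted p = 0.00948 for Akr1c12 and 0.0169 for Akr1c13), in a fit whose spread comes from the knockdown pair alone. That fit called 6.29% of all entries lower and 4.04% higher.

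The overexpression arm has 1 library a side and no replicate check, and a size rule of 2-fold or more, after adding 1 to each RPKM, was used. By this rule 2 of the 6 measured members were higher, Akr1c12 by 92.7-fold (log2 6.53) and Akr1c13 by 23.2-fold (log2 4.54), and 0 were lower. Over all 9936 entries measured, 4.92% were at least 2-fold higher and 5.21% lower. The members' median log2 ratio was 0.48, beside 0.01 over all entries. The mast cell and basophil markers differed in the same libraries: 14 of 18 measured were at least 2-fold higher with overexpression and 0 lower. By the same rule 10 of 12 erythroid markers were lower and 0 higher. Of 8 neutrophil and monocyte markers, 5 were lower and 1 higher. In the knockdown arm the mast markers were summed at 10871 and 9765 RPKM in the knockdown against 82713 and 19685 RPKM in the controls, and 11 of 19 tested lay below both controls, against 17.0% of all entries. The part of these markers in the AKR1C differences was not tested.

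Akr1a1, aldehyde reductase, was the most abundant member per length in 5 of the 6 libraries, KAI1 overexpression being the exception. The enzyme reduces a broad range of aldehydes and, in the mouse, turns glucuronate into gulonate on the way to ascorbate. It lies on chromosome 4 (116309115 to 116324279). Akr1a1 stood at 429 and 393 RPKM in the knockdown against 619 and 485 RPKM in the controls, and at 404 RPKM with overexpression against 369 RPKM in its control. Both knockdown libraries lay below both controls, as did 17.0% of all entries tested. The means were 411 ± 26.1 RPKM and 552 ± 94.8 RPKM (SD, n = 2 each), a log2 difference of -0.41 (SE 0.29), and the overexpression ratio was 0.13 on the log2 scale. Gulo and Rgn, the later enzymes of the ascorbate route, were listed at 0 in all 6 libraries.

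Akr1e1, which reduces anhydrofructose formed in glycogen breakdown, lies on chromosome 13 (4591736 to 4608410), beyond the AKR1C genes. It stood at 10.9 and 10.4 RPKM in the knockdown against 13.8 and 13.8 RPKM in the controls, and at 14.1 RPKM with overexpression against 9.68 RPKM in its control. The knockdown libraries again lay below both controls, and the library-to-library range of 1.41-fold on the RPKM + 1 scale was smaller than in most entries (15.5% had a smaller one). The log2 difference was -0.34 (SE 0.21) in the knockdown and 0.50 in the overexpression. Akr1e1 and Akr1a1 were the closest pair of members over the 6 libraries, with a root mean square difference of 0.19 between their centred log2 values, against 1.19 for Akr1c12 and Akr1c13.

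Akr7a5 reduces the dialdehyde of aflatoxin and succinic semialdehyde, a product of the transmitter GABA. It lies on chromosome 4 (138866659 to 138874701) and differed in the opposite direction from Akr1a1 in both arms. It stood at 45.6 and 40.2 RPKM in the knockdown against 24.1 and 31.1 RPKM in the controls, and at 28.7 RPKM with overexpression against 49.7 RPKM in its control. Both knockdown libraries lay above both controls, as did 21.5% of all entries tested. The means were 42.9 ± 3.79 RPKM and 27.6 ± 4.90 RPKM (SD, n = 2 each). The log2 difference of 0.63 (SE 0.26) had the smallest unadjusted limma p-value among the members, 0.0655 (adjusted p = 0.83). The log2 ratio in the overexpression arm was -0.77.

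Akr1b3, aldose reductase, makes sorbitol from glucose in the polyol pathway. It lies on chromosome 6 (34253930 to 34267489). It stood at 82.9 and 71.8 RPKM in the knockdown against 51.0 and 86.5 RPKM in the controls, so that the groups overlapped, and at 107 RPKM with overexpression against 77.1 RPKM in its control. The means of 77.3 ± 7.86 RPKM and 68.7 ± 25.1 RPKM (SD, n = 2 each) differed by 0.21 on the log2 scale (SE 0.35). The sign again rested on control replicate 1, since the difference was -0.16 without it and 0.59 without control replicate 2. In the overexpression arm the log2 ratio was 0.47. Akr1b8, on chromosome 6 (34304164 to 34318454), encodes a reductase first known as induced by fibroblast growth factor. It was between 0.00399 and 0.139 RPKM in the 6 libraries, at most 5 estimated reads, and was not tested.

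**Figure D3:**
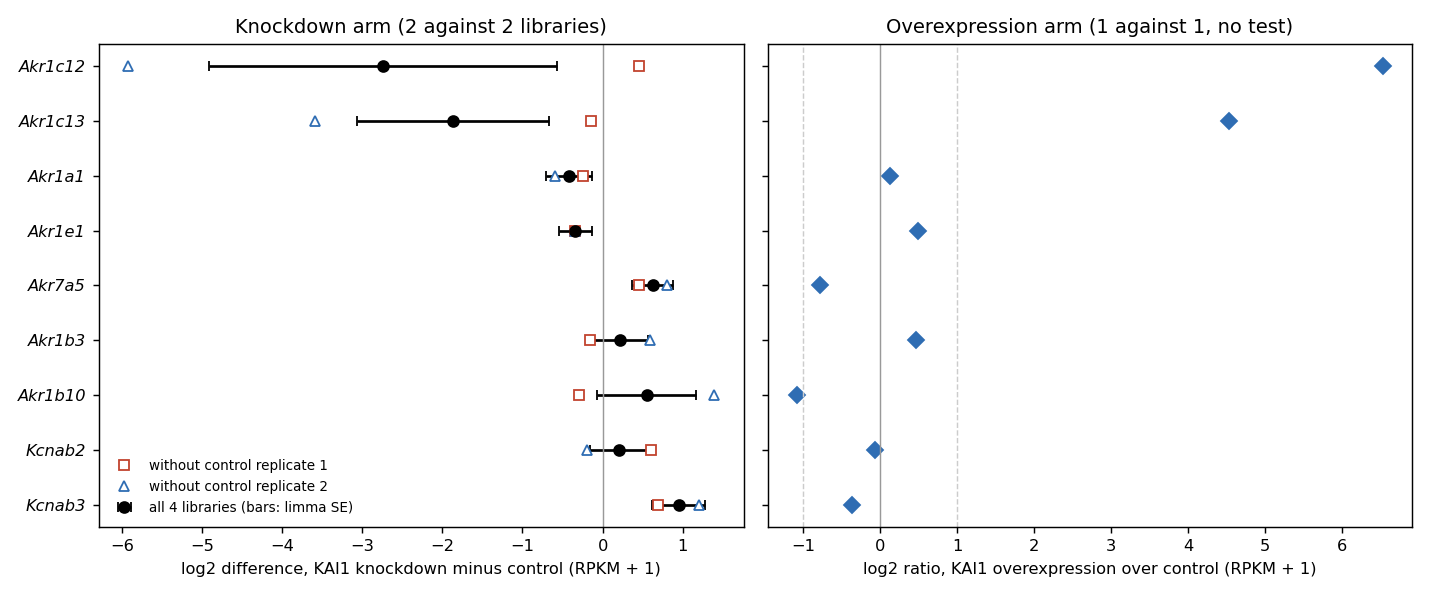
Left, log2 difference of KAI1 knockdown minus control on the RPKM + 1 scale for the 6 tested members and 3 related genes, with limma standard errors (bars) and the values without either control library (open symbols); right, log2 ratio of KAI1 overexpression over its control, with dashed lines at 2-fold. The open symbols of Akr1c12 lie at 0.45 and -5.92, on both sides of 0, and the overexpression ratios of Akr1c12 and Akr1c13 lie at 6.53 and 4.54.

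Another 12 genes of the superfamily had an entry, of which 3 entered the knockdown fit and 0 were called. Akr1b10 is a mouse AKR1B reductase of chromosome 6 whose coding sequence is 85.41% identical to that of Akr1b8. It stood at 37.2 and 31.4 RPKM in the knockdown against 12.4 and 42.2 RPKM in the controls, and at 9.91 RPKM with overexpression against 22.1 RPKM in its control. It was thus lowest in the 2 libraries where Akr1c12 was highest, a comparison chosen after the values were seen. Its knockdown difference on the log2 scale was 0.55 (SE 0.62). It was -0.29 when control replicate 1 was left out and 1.40 when replicate 2 was, where limma called it higher (adjusted p = 0.0411), as it did 4.04% of all entries, with a single control. Its overexpression log2 ratio was -1.08. Kcnab2 and Kcnab3 encode beta subunits of voltage-gated potassium channels that keep the aldo-keto reductase fold. Kcnab3 was low, at 1.92 and 2.44 RPKM in the knockdown against 0.375 and 0.961 RPKM in the controls, and at 0.749 RPKM with overexpression against 1.26 RPKM in its control. The knockdown libraries lay above both controls (log2 difference 0.95, SE 0.33, limma's unadjusted p = 0.04 and adjusted p = 0.83). Kcnab2 overlapped between the groups, at 52.9 and 63.4 RPKM in the knockdown against 66.3 and 37.7 RPKM in the controls. It stood at 60.5 RPKM with overexpression against 63.3 RPKM in its control. The other 9 genes were below 1 RPKM in every library. Akr1c14, Akr1c20, Akr1c21, Akr1c6 and Akr1cl were listed at 0 throughout, so that Akr1c12 and Akr1c13 carried nearly all AKR1C signal.

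The pathways that use or supply these enzymes were read from lists of genes, and limma called 0 genes in each of them. These counts stand against 21.5% of all entries above both knockdown controls and 17.0% below, and against 4.92% at least 2-fold higher and 5.21% lower with overexpression. In the polyol, methylglyoxal and glucuronate list, 2 of 8 tested genes lay above both controls and 4 below, with a median log2 difference of -0.26. Sord, which turns the sorbitol made by aldose reductase into fructose, stood at 54.3 and 60.3 RPKM in the knockdown against 77.9 and 65.7 RPKM in the controls, and at 38.7 RPKM with overexpression against 53.8 RPKM in its control. Khk, which phosphorylates fructose, lay above both controls, at 43.7 and 70.0 RPKM in the knockdown against 28.2 and 33.2 RPKM. With overexpression it stood at 7.03 RPKM against 26.6 RPKM in its control. Among 14 tested genes of NADPH supply, 4 lay above and 2 below both controls (median 0.08), and with overexpression 0 of 14 were at least 2-fold higher and 2 lower. Among 16 carbonyl reductases of the short-chain dehydrogenase family, 1 lay above and 4 below (median -0.04), with 2 higher and 1 lower of 16 in the overexpression arm. Among 8 aldehyde dehydrogenases, 1 lay above and 0 below (median -0.08), with 0 of 7 at least 2-fold apart in the overexpression arm. Of 19 tested genes of the Nrf2 and antioxidant list, 1 lay above and 2 below both controls (median -0.15). With overexpression 4 of 20 were at least 2-fold higher and 1 lower. Among the higher ones, the autophagy receptor Sqstm1 stood at 649 RPKM against 142 RPKM in the control. Sqstm1 was at 137 and 145 RPKM in the knockdown against 450 and 137 RPKM in its controls. The lower gene, Gstm1, stood at 8.01 RPKM with overexpression against 34.6 RPKM. When control replicate 1 was left out, the knockdown medians were 0.19 for the Nrf2 list and 0.01 for the short-chain dehydrogenases, the opposite sign from the fit with all 4 libraries.

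The steroid and prostaglandin lists bear on the substrates of the AKR1C enzymes. Cyp11a1, which makes pregnenolone from cholesterol, shared the 2 high libraries of Akr1c12 and Akr1c13. It stood at 97.4 and 147 RPKM in the knockdown against 2282 and 159 RPKM in the controls, and at 947 RPKM with overexpression against 74.4 RPKM in its control. Hsd3b1, which makes progesterone from pregnenolone, was listed at 0 in all 6 libraries. Of 14 tested steroid genes 4 lay above and 3 below both controls (median 0.04, and -0.07 when control replicate 2 was left out), and with overexpression 1 of 12 was at least 2-fold higher and 0 lower. Hpgds, the prostaglandin D2 synthase of mast cells, stood at 2.41 and 4.27 RPKM in the knockdown against 69.6 and 7.48 RPKM in the controls, and at 26.3 RPKM with overexpression against 2.61 RPKM in its control. Of 7 tested prostaglandin genes 4 lay above and 1, Hpgds, below both controls (median 0.23). With overexpression 1 of 6 was at least 2-fold higher and 1 lower.

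The interleukin 3 list is of interest for the background of the Akr1c12 and Akr1c13 pair. Il3 itself was listed at 0 in all libraries. Of 16 tested genes of the interleukin 3 receptor and STAT5 list, 3 lay above both controls and 5 below (median log2 difference -0.40), and this median was 0.03 when control replicate 1 was left out and -1.17 when replicate 2 was. With overexpression 9 of 19 were at least 2-fold higher and 1 lower, with a median log2 ratio of 0.98. Cish, a feedback inhibitor that STAT5 switches on, stood at 1.73 and 2.09 RPKM in the knockdown against 16.3 and 2.72 RPKM in the controls, and at 31.9 RPKM with overexpression against 1.33 RPKM in its control. Csf2rb, the shared beta chain of the interleukin 3 receptor, stood at 83.6 and 86.1 RPKM in the knockdown against 352 and 106 RPKM in the controls, and at 232 RPKM with overexpression against 67.0 RPKM in its control. Both genes were highest in the libraries where Akr1c12 and Akr1c13 were high, and for both the 2 knockdown values lay under those of the controls. In the fit without control replicate 2, Cish, Csf2rb, Cyp11a1 and Hpgds were called lower by limma (adjusted p from 0.0191 to 0.0208), as were 6.29% of all entries, while listed genes such as Cd34, Lyz2 and Myb were called higher. Stat5a was lowest in the same 2 libraries, at 53.4 and 69.9 RPKM in the knockdown against 27.4 and 50.9 RPKM in the controls, and at 33.3 RPKM with overexpression against 58.3 RPKM. Socs3, the 1 gene of the list at least 2-fold lower with overexpression, stood at 0.862 RPKM against 6.48 RPKM in its control. In the knockdown arm Socs3 stood at 6.67 and 6.73 RPKM against 6.57 and 3.52 RPKM in the controls. The part of interleukin 3 in the AKR1C levels was not tested.

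The entries most like each member were found among 5321 entries averaging 10 RPKM or more, as the smallest root mean square difference of centred log2(RPKM + 1) values over the 6 libraries. For Akr1c13 they were Lilrb4a (0.40), an inhibitory receptor of myeloid and mast cells, Furin (0.54), a protease that cuts proproteins, and S100a6 (0.67), a calcium-binding protein. Lilrb4a stood at 5.19 and 4.52 RPKM in the knockdown against 124 and 6.83 RPKM in the controls, and at 180 RPKM with overexpression against 3.42 RPKM in its control. For Akr1c12 the nearest were the small RNAs Mir3074-1 (0.79) and Snord34 (1.14), both listed at 0 in 4 libraries, and between them Lilrb4a (1.03). The other members had nearer neighbours with far smaller ranges: Lamtor1 (0.04), Scp2 (0.05) and Rmnd5b (0.06) for Akr1a1, and Actr2 (0.05), Arpc5 (0.06) and Eprs (0.06) for Akr1e1. For Akr7a5 they were Psmc3ip (0.07), Spc24 (0.08) and Nt5c3b (0.09), and for Akr1b3 they were Nme6 (0.06), Parvg (0.07) and Ddx21 (0.07). Over the 6 libraries 2 of the 6 measured members had a 4-fold range or wider (RPKM + 1), against 10.5% of all entries.

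**Figure D4:**
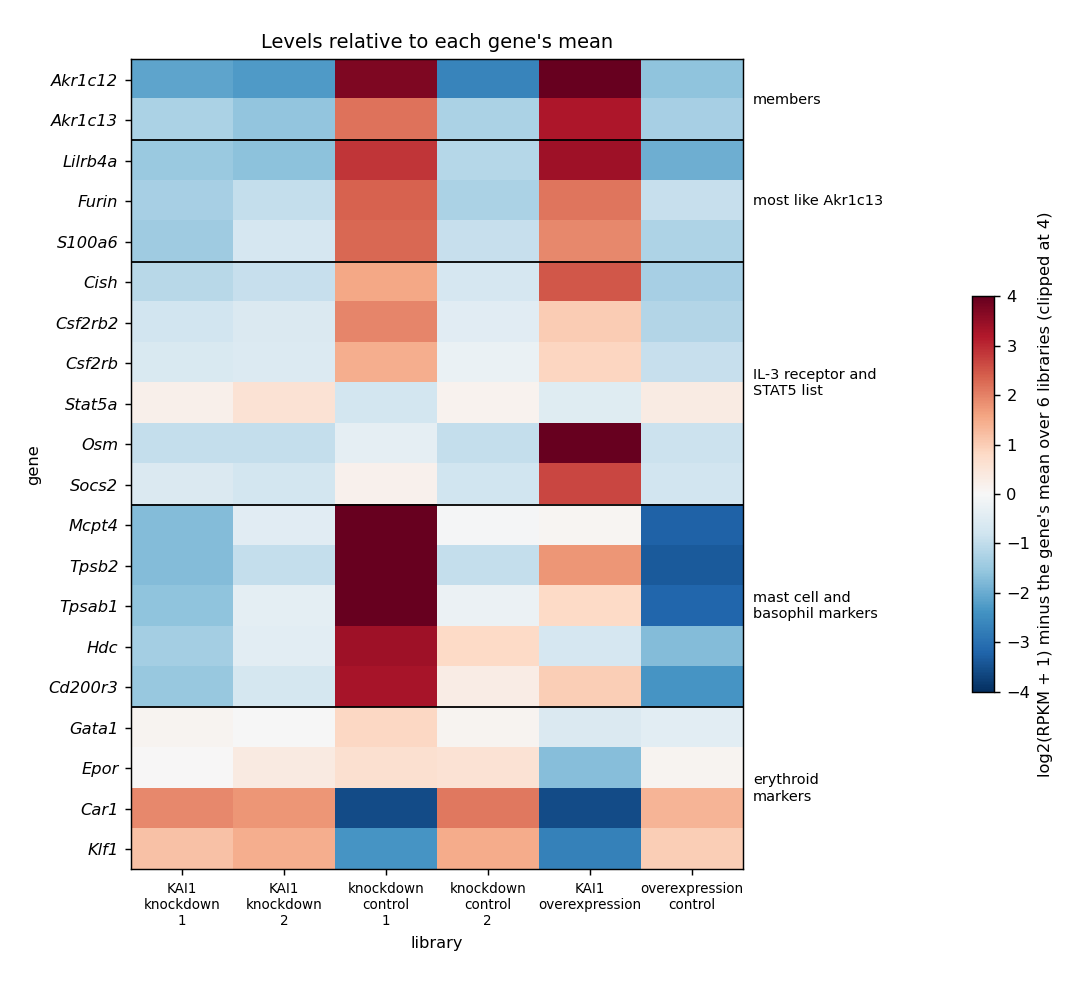
Log2(RPKM + 1) of each gene minus its own mean over the 6 libraries (colour, clipped at 4), for Akr1c12, Akr1c13, the entries most like Akr1c13, and genes of the interleukin 3, mast cell and erythroid lists. Knockdown control replicate 1 and KAI1 overexpression share high Akr1c12, Akr1c13, Lilrb4a and Cish and low Car1 and Klf1. The other erythroid genes shown, Gata1 and Epor, are highest in knockdown control replicate 1 and lowest in KAI1 overexpression.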

How the data were processed

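RNA from 6 libraries of EML cells was sequenced. The values deposited by the authors are RPKM per transcript, per the file headers, with 1 table a library. Processing notes of the submitters name mm9, TopHat2 2.0.9, Bowtie and Cufflinks; settings, strand and read length are not given in the sources used here. Each table held 23170 entries, of which 24 repeated an accession and locus, and 23146 were used. RefSeq named 22840 entries and GENCODE 125, and 181 stayed without a symbol. Coordinates are those deposited for mm9, with starts counted from 1. The reference tables are of GRCm38, another build, and served for names and sequences only. Depth was estimated from the ratios of low values, which closed within 0.5% for 15 of 15 pairs of libraries. The absolute depth further takes the most frequent low values as 1 read and uses GENCODE transcript lengths, which may differ from those of the authors. Estimated reads are therefore approximate. Since whole reads could not be had for every entry, a count model was not used.

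Knockdown differences were fitted on log2(RPKM + 1) by limma 3.58.1 (R 4.3.3), a scale that understates changes of low genes, with a mean-variance trend and no covariate, over the 10113 entries averaging 1 RPKM or more in its 4 libraries. Tests were two-sided, with Benjamini-Hochberg adjustment over all entries and a threshold of 0.05. The fit was also run on simulated data, where it was required only that median estimates lie near the planted change. That requirement does not show how many real changes a fit of 2 against 2 libraries can find. Overexpression, with 1 library a side, was described by fold. The members, gene lists and named genes were chosen with earlier results of these data known. Named are all members, the other aldo-keto reductases, Cd82 and the 3 entries most like each member. The rule also picks, in each list, up to 4 genes with the largest non-overlapping knockdown difference and up to 3 with the largest overexpression ratio of 2-fold or more. Of these the text and figures give only some, a choice made after their values were seen, and the rest are not reported here. Sord, Gulo, Rgn, Hsd3b1, Il3, Socs3, Kit, Mcpt8, Fcer1a and the macrophage markers at 0 were named outside the rule, after their values were seen. Alternatives were the pseudocount, the filter, quantile and median scaling, a replicate block and leaving out each library. Sequences were aligned with Biopython 1.88 in Python 3.11.15; coding sequences of GENCODE M21 took the place of proteins, which were not used here.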

Additional observations from a re-analysis of the deposited data

Results flagged for a closer look

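In 4 of the 9 aldo-keto reductase genes measured in both arms, both knockdown libraries moved one way against both controls and the overexpression library moved the opposite way against its control. The value given for each is the knockdown log2 difference minus the overexpression log2 ratio. It was -0.54 for Akr1a1 and -0.84 for Akr1e1, lower in the knockdown and higher with overexpression. It was 1.40 for Akr7a5 and 1.32 for the potassium channel subunit Kcnab3, higher in the knockdown and lower with overexpression. The difference between the arms was not tested, since the overexpression arm has 1 library a side. Of all 9736 entries measured in both arms, 26.7% moved in opposite ways by the same description and 11.9% moved the same way.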

How the results depend on the processing

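The counts of called entries were small and moved with the settings. limma called 1 entry higher and 2 lower of 10113 (336 had an unadjusted p below 0.05). A pseudocount of 0.1 gave 4 lower, no filter on low values gave 0 and 0, and quantile normalization gave 1 lower. Leaving out a library gave 0 to 409 higher and 0 to 636 lower, the highest without knockdown control replicate 2 (without control replicate 1 it gave 2 and 14). Calls among the listed genes were 0, and 0 to 52 when a library was left out, with 52 without control replicate 2. Same-numbered libraries did not deviate together (correlation -0.08 over 10113 entries). With 2 libraries a group, which leave 1 deviation per group for each entry, this cannot decide whether the numbers pair them. A fit with a replicate block gave 1 higher and 3 lower.

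Single libraries decided several members. When a library was left out, Akr1c12 ran from -5.92 to 0.45 on the log2 scale, reversed without control replicate 1 (adjusted p = 0.419 by limma), and Akr1c13 from -3.60 to -0.14. Over the same fits Akr1b3 ran from -0.16 (without control replicate 1) to 0.59, Akr1b10 from -0.29 (without control replicate 1) to 1.40, and Kcnab2 from -0.19 (without control replicate 2) to 0.61. The causes were not tested. The other alternatives kept the direction and side of the threshold of the 6 tested members. The overexpression differences of the members kept their direction and size class under the pseudocount, filter and scaling alternatives. Akr1c12 in the low libraries rests on 6 to 69 estimated reads, which limits its precision there, and Akr1b8 and Akr1c18 are too low to compare at this depth.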
